A study of Homo sapiens with 12 samples.

Results

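The levels of 8 genes named for noncoding RNA were followed through a time course of hypoxia in HCT116 cells, an established human colorectal cancer cell line. They were MIR210HG, UPK1A-AS1, RP11-798M19.6, RP11-565A3.2, CTD-2012J19.2, NEAT1, MALAT1 and MIR22HG, which are 8 of the 60310 gene names and unannotated loci in the deposited transcript table. Every transcript of these names was taken except those that the assembler placed on the opposite strand, which left 61 of 292032 transcripts, and their abundances were summed for each gene. The names were chosen on a reading of these same FPKM values over the time course, and which value decided each name is not recorded, so the levels of the 8 genes are given as a description and without a test. All 8 passed the filter on low values that left 18127 genes for testing. CTD-2012J19.2, listed at 0 FPKM in every library before 24 h, passed it only through its 24 h libraries.

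Cells at 0 h were kept at 21% oxygen, and cells at 1, 2 and 24 h were kept at 1% oxygen in a hypoxia workstation. Each of the 4 time points had 3 biological replicates, which makes 12 libraries of poly(A) RNA, prepared with a kit that keeps the strand. All groups came from the same cell line in the same medium, and the labels give no engineered allele. Hypoxia began 24 h after plating, and whether the cells of 0 h and 24 h had spent the same time in culture is not given in the sources used here, so an effect of longer culture cannot be told apart from one of low oxygen.

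Abundance was measured in FPKM, that is fragments per kilobase of transcript scaled to the mapped fragments of a library, a level per length that can be compared between genes. Read counts and read depth were not analysed here, so no counting error is given and the precision of a value is judged from its 3 replicates. Fewer cells and less RNA per cell cannot be told apart in such bulk samples. Of 6 tested epithelial markers CDH1 (E-cadherin) was called higher at 24 h (log2 fold change 1.76, limma adjusted p = 1.79e-06) and 0 were called lower. The other 5 had log2 fold changes below 0, down to -0.79 for the keratin KRT20 (limma adjusted p = 0.00098). The keratin KRT8 was at 988 ± 190 (SD, n = 3) FPKM at 0 h, and of 5 markers of blood, endothelium, liver and fibroblasts only COL1A1 passed the filter. COL1A1, a collagen chain, rose from 1.92 ± 0.206 to 6.87 ± 1.67 FPKM (SD, n = 3 each; limma adjusted p = 3.34e-05), and its part in any result was not tested. All 6 genes used to check the response to hypoxia (CA9, VEGFA, NDRG1, EGLN3, ADM and BNIP3) were higher at 24 h, with log2 fold changes from 1.90 to 5.34, although CA9 passed the filter only with its 24 h libraries, which favours a call. Scaling every library to the same sum over all transcripts (TPM), of which most went to short ones, moved the median log2 fold change of all genes at 24 h from -0.03 to -0.76 and the split of called genes from 1776 higher and 1665 lower to 357 higher and 3934 lower.

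Long noncoding RNAs are transcripts that are not translated into protein. Some are hosts from which a microRNA is cut, some lie across a coding gene on the opposite strand or start beside it, and some stay in the nucleus as part of its architecture. When oxygen falls, the hypoxia-inducible factors (HIF) are no longer degraded and bind DNA at a short core that reads ACGTG or GCGTG, and MIR210HG is among the best known noncoding genes that they activate. NEAT1 is the RNA around which paraspeckles assemble, nuclear bodies that hold back certain RNAs and proteins, and MALAT1 gathers at the nuclear speckles where splicing factors are stored.

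Both host genes carry a microRNA within their own transcript. The mature sequences of the arms whose reported targets are described further on are shown to set the hosts beside what they release, with the seed, bases 2 to 8, in capitals (RefSeq, table of build GRCh38.p14).

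hsa-miR-210-3p: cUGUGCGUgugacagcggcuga
hsa-miR-22-3p: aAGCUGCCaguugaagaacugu

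The seeds differ, so the pair shares no seed family. By sequence match to GRCh37, the build of the deposited files, the hairpin of miR-210 lies at chr11:568089-568198 on the minus strand, in the intron between the 2 exons of the leading MIR210HG reference transcript (exon 1 at chr11:568352-568457, exon 2 at chr11:567144-567853). Mature miR-22-3p matched at chr17:1617208-1617229 on the minus strand, inside exon 2 of the leading MIR22HG transcript. In these leading transcripts the hairpin of miR-210 is thus intronic, whereas miR-22-3p lies in exonic sequence. The other transcripts of the hosts were not searched, and the release of the microRNAs was not measured. The mature microRNAs themselves were not analysed here.

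The annotated starts of all 8 members were searched for the HIF core, and the windows of the 3 long noncoding members that were higher at 24 h and whose leading transcript matched the reference are shown. Each window runs from 250 bases before to 50 bases after the start, read 5′ to 3′ on the gene's own strand from GRCh37, with ACGTG and GCGTG on either strand in capitals. Both motifs were searched as written and as their reverse complements. Overlapping matches were all counted, so that CACGTG would give 1 match on each strand.

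MIR210HG, chr11:568408-568707, minus strand: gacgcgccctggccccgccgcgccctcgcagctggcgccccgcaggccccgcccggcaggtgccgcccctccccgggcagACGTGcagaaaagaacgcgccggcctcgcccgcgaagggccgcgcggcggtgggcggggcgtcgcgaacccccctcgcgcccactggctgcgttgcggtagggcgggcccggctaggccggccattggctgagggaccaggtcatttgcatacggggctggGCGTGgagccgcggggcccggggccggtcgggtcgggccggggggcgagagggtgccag
UPK1A-AS1, chr19:36164157-36164456, minus strand: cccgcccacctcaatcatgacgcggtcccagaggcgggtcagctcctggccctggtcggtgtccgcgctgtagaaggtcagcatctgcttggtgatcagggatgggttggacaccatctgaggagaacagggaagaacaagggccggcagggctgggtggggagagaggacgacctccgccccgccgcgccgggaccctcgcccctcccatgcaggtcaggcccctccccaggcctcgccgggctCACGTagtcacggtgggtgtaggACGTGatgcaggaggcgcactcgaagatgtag
RP11-798M19.6, chr4:174290917-174291216, minus strand: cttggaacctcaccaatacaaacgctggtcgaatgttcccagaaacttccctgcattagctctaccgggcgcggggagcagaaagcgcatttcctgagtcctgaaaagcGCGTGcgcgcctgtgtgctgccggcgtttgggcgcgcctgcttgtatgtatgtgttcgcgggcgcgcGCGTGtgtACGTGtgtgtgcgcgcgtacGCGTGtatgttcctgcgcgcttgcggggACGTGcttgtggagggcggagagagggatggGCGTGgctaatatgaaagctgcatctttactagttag

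Among 16502 windows of the same length at the leading starts of tested genes, 23.9% held ACGTG, 45.5% held GCGTG and 57.2% held at least 1 of them. The MIR210HG window held 2 matches, an ACGTG from position -170 and a GCGTG from position -9 relative to the start. UPK1A-AS1 also held 2, both of them ACGTG, from position -5 on the opposite strand and from position 19 on the gene's own. RP11-798M19.6 held 6, of which 2 were ACGTG and 4 GCGTG, and 1.1% of the windows held as many. Of the other members, CTD-2012J19.2 held 0, RP11-565A3.2 and NEAT1 held 1 each, and MALAT1 and MIR22HG held 2 each. Of all windows 29.5% held at least 2. These letters are a description of the windows and no binding was measured.

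At 24 h, 5 of the 8 genes were more than 2-fold higher than at 0 h on the log2(FPKM + 0.5) scale, MIR22HG was more than 2-fold lower, and NEAT1 and MALAT1 were within 2-fold. As a ratio of mean FPKM, MALAT1 was at 2.19, and at 1.26 without replicate 3 of 24 h. On the same log2 scale, over all genes tested, 11.4% were more than 2-fold higher and 10.1% more than 2-fold lower. The same 5 genes had every 24 h library above every 0 h library, which held for 28.4% of all genes, and MIR22HG had every 24 h library below, which held for 31.6%. As the names were chosen with these values known, the counts say nothing about the group beyond what chose it. At 2 h MIR210HG alone was past 2-fold on that scale, which understates the change of genes with low levels, against 1.26% of all genes higher and 0.855% lower, and at 1 h it was 0 of 8, against 0.651% and 0.673%. The ratio of mean FPKM at 2 h to 0 h was 2.86 for RP11-798M19.6 and 0.454 for MIR22HG. The median log2 fold change of the 8 genes was -0.02 at 1 h, 0.27 at 2 h and 3.68 at 24 h, beside -0.01, -0.01 and -0.03 for all genes. For MIR210HG, UPK1A-AS1, RP11-798M19.6 and RP11-565A3.2 the log2 differences at 24 h, 3.63 to 5.07, were 2.39 to 3.67 under TPM and 4.13 to 6.13 with a pseudocount of 0.1. Without CTD-2012J19.2, which was listed at 0 before 24 h, the median at 24 h was 3.63. CTD-2012J19.2 is also among the 5 higher genes, and it passed the filter only where it is high.

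**Figure D1:**
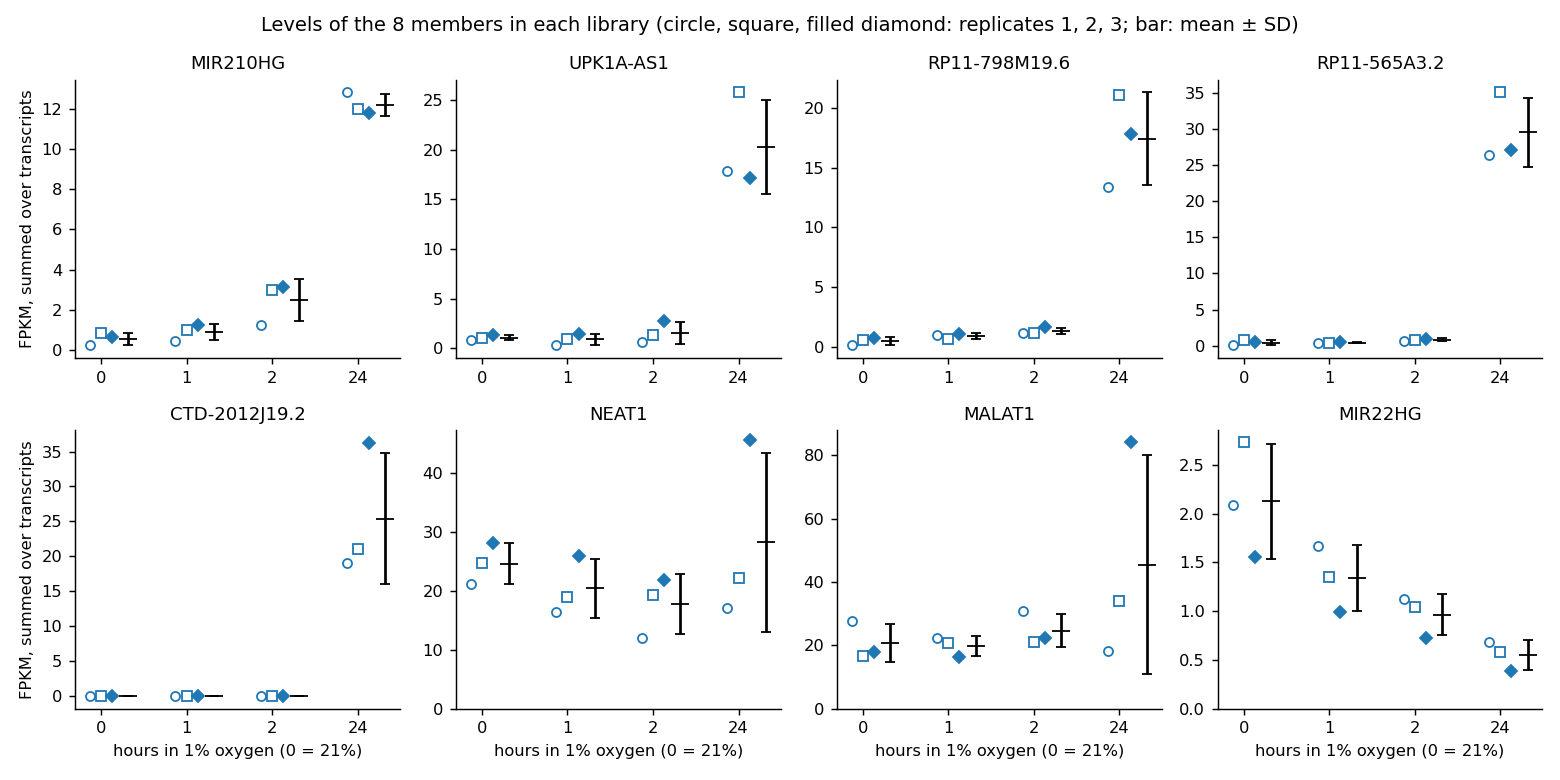
Summed FPKM of each of the 8 genes (vertical axis, from 0, with a scale of its own in each panel) against hours in 1% oxygen (0 stands for 21% oxygen). Symbols are the 3 libraries of a time point and bars the mean ± SD. In 5 panels the 24 h libraries stand above all others, MIR22HG falls from each time point to the next, and NEAT1 and MALAT1 are spread by replicate 3 at 24 h.

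The microRNA hosts moved in opposite directions. MIR210HG (ENSG00000247095; GRCh37 chr11:565657-568457, minus strand) was at 0.221, 0.819 and 0.630 FPKM at 0 h and at 0.449, 1.00 and 1.23 at 1 h. At 2 h its libraries gave 1.26, 3.00 and 3.14 FPKM, and at 24 h they gave 12.8, 11.97 and 11.8. All 3 libraries of 2 h lay above the highest of 0 h, and those of 24 h lay above all others and close to each other. From means of 0.557 ± 0.306 to 12.2 ± 0.551 FPKM (SD, n = 3 each) the ratio at 24 h was 21.9, and at 2 h it was 4.43. On the log2(FPKM + 0.5) scale the differences were 1.46 at 2 h and 3.63 at 24 h (standard error 0.32 each).

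MIR210HG had 5 transcripts, all matching the reference. At 24 h a spliced transcript of 816 bases carried 53.6 ± 4.37% of its FPKM (SD, n = 3), one of 2302 bases carried 21.8 ± 1.92% and one of 659 bases 17.3 ± 6.91%. The share of the 816-base transcript at 2 h, 54.2 ± 1.49%, differed from this by less than the spread between replicates (SD, n = 3). The share of the 659-base transcript had no steady direction, being 24.0 ± 22.9% at 0 h, 23.9 ± 16.8% at 1 h and 6.40 ± 2.21% at 2 h (each with its SD, n = 3).

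MIR22HG (ENSG00000186594; chr17:1614741-1620468, minus strand) was at 2.09, 2.73 and 1.56 FPKM at 0 h and at 1.67, 1.36 and 0.991 at 1 h. It was at 1.12, 1.04 and 0.729 FPKM at 2 h and at 0.684, 0.577 and 0.387 at 24 h. Every library of 2 h and of 24 h lay below every library of 0 h, and 2 of the 3 libraries of 1 h did. The mean fell from 2.13 ± 0.589 to 0.549 ± 0.151 FPKM (SD, n = 3 each), a ratio of 3.87 of 0 h to 24 h, and the log2 differences were -0.51, -0.83 and -1.31 at 1, 2 and 24 h (standard error 0.22 each). With only transcripts past 0.5 FPKM in 3 libraries the last was -0.98, within 2-fold. Of its 25 transcripts 15 were above 0 in any library and 1 was past 0.5 FPKM in 3 libraries. This was the transcript of 2626 bases, with 70.6 ± 12.3% of the sum at 0 h (SD, n = 3) and 100.0%, 100.0% and 66.8% in the libraries of 24 h. It was the only member with every 2 h library below those of 0 h, as 12.6% of all genes were, while MIR210HG and RP11-798M19.6 had every 2 h library above, as 12.2% were.

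UPK1A-AS1 (ENSG00000226510; chr19:36158850-36164206, minus strand) runs against UPK1A, which encodes uroplakin 1A, a membrane protein of the bladder lining. It was at 0.868, 1.00 and 1.31 FPKM at 0 h, at 0.276, 0.940 and 1.43 at 1 h and at 0.616, 1.32 and 2.77 at 2 h. At 24 h it was at 17.8, 25.8 and 17.2 FPKM. The libraries of 1 h and 2 h lay on both sides of those of 0 h, and the rise was seen at 24 h alone. From 1.06 ± 0.226 to 20.3 ± 4.78 FPKM (SD, n = 3 each) the ratio was 19.1 and the log2 difference 3.72 (standard error 0.39). Its 795-base transcript carried 90.5 ± 5.75% of the sum at 24 h.

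RP11-798M19.6 (ENSG00000272870; chr4:174284931-174291872, minus strand) bears the name SAP30-DT in GENCODE 44, which marks it as a divergent transcript of SAP30, a subunit of a histone deacetylase complex. Its annotated start lies 1139 bases from that of SAP30 on the other strand. It was at 0.0869, 0.538 and 0.739 FPKM at 0 h, at 0.942, 0.603 and 1.08 at 1 h and at 1.10, 1.18 and 1.63 at 2 h. At 24 h it was at 13.4, 21.1 and 17.8 FPKM. The libraries of 2 h already lay above those of 0 h without overlap, and those of 24 h lay far above both. The mean went from 0.455 ± 0.334 to 17.4 ± 3.87 FPKM (SD, n = 3 each), a ratio of 38.3 and a log2 difference of 4.28 (standard error 0.28). A transcript of 587 bases held 65.4 ± 4.73% of the 24 h sum and one of 751 bases 25.9 ± 9.91%.

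RP11-565A3.2 (ENSG00000250590; chr4:188454027-188593909, minus strand), an intergenic gene named LINC02492 in GENCODE 44, had the largest fold change of the 7 members above 0 at 0 h. It was at 0.0374, 0.802 and 0.490 FPKM at 0 h, at 0.357, 0.347 and 0.510 at 1 h and at 0.702, 0.866 and 1.00 at 2 h. At 24 h it was at 26.4, 35.1 and 27.1 FPKM, which is above every earlier library. The ratio of the means, 29.5 ± 4.81 to 0.443 ± 0.384 FPKM (SD, n = 3 each), was 66.6, and the log2 difference was 5.07 (standard error 0.27). The ratio rests on low values at 0 h and was 112 without replicate 2 of 0 h. None of the 3 transcripts that were past 0.5 FPKM in 3 libraries matched the reference. The one of 1134 bases, which only overlaps an annotated transcript, carried 63.5 ± 4.17% of the 24 h sum, and transcripts of 1235 and 746 bases that share part of their splice sites with the annotation carried 29.3 ± 3.61% and 7.11 ± 0.555%. The start of the annotated transcript may hence not be that of the RNA seen here, and its window is not printed.

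CTD-2012J19.2 does not bear out the label of a long noncoding RNA. GENCODE 44 gives it (ENSG00000248126) as an unprocessed pseudogene, and it is a transcript of 121 bases with 1 exon at chr5:1598242-1598362 on the plus strand, shorter than the usual definition of a long RNA. It was listed at 0 in all 9 libraries of 0, 1 and 2 h and at 18.99, 21.0 and 36.2 FPKM at 24 h, and no ratio is given for it. Its log2 difference, drawn as an open symbol in the figures, rests on the pseudocount. Its sequence is shown because the same 121 bases occur at another place in the genome.

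CTD-2012J19.2, chr5:1598242-1598362, plus strand: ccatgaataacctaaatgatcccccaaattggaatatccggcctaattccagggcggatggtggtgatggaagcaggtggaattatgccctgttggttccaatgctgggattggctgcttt

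The exact copy lies at chr5:216846-216966 on the minus strand, in an exon of CCDC127, a protein-coding gene, so reads of this sequence cannot be assigned to either place. CCDC127 had a mean of 1.85 ± 0.191 FPKM before hypoxia and of 1.87 ± 0.383 after 24 h (SD, n = 3 each). Values of 0 are also common at such lengths. Of 129 annotated transcripts of 101 to 150 bases that were above 10 FPKM in some library, 80.6% were listed at 0 in another, against 2.64% of 2988 transcripts of 1000 to 2000 bases. The part of transcript length and of the shared sequence in the rise was not tested.

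NEAT1 and MALAT1 were the most abundant of the 8 genes at 0 h. NEAT1 (ENSG00000245532; chr11:65190245-65213011, plus strand) was at 21.1, 24.7 and 28.1 FPKM at 0 h, at 16.4, 19.0 and 26.0 at 1 h and at 12.1, 19.4 and 21.9 at 2 h. At 24 h it was at 17.1, 22.2 and 45.6 FPKM. The groups overlapped at every time point, and the mean at 24 h, 28.3 ± 15.2 FPKM, differed from that at 0 h, 24.6 ± 3.47 (SD, n = 3 each), by less than the spread between replicates. The log2 difference was 0.08 (standard error 0.33), and without replicate 3 of 24 h it was -0.32. Under TPM it was -0.76, as was the median of all genes.

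MALAT1 (ENSG00000251562; chr11:65265111-65275544, plus strand) was at 27.7, 16.7 and 17.9 FPKM at 0 h, at 22.3, 20.7 and 16.3 at 1 h and at 30.7, 21.0 and 22.3 at 2 h. At 24 h it was at 18.1, 34.1 and 84.2 FPKM, so that 1 library of 24 h lay within the range of 0 h and replicate 3 lay far above the rest. The means were 20.8 ± 6.07 and 45.5 ± 34.5 FPKM (SD, n = 3 each) with a log2 difference of 0.87 (standard error 0.43). This value was 0.29 without replicate 3 of 24 h, 1.38 without replicate 1 of 24 h and 1.09 without replicate 1 of 0 h. It was 1.07 with matching transcripts alone and 0.0102 under TPM.

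The transcripts of both genes were then looked at in turn. NEAT1 has a short form with a poly(A) tail and a long form that ends in a triple helix instead of a tail and is the one that paraspeckles need. MALAT1 ends in the same way as the long form, so poly(A) selection does not capture the full amount of either. The short NEAT1 transcript, of 1745 bases, went from 87.0 ± 1.01% of the 0 h sum to 84.6 ± 3.05% of the 24 h sum (SD, n = 3 each). The annotated long transcript, of 22743 bases, was at or below 0.0617 FPKM in every library of 0, 1 and 2 h and at 0.102, 0.886 and 2.205 FPKM at 24 h. All 3 values of 24 h lay above all earlier ones and were themselves widely spread, and such long and low transcripts share most of their length with others, so the split between them is an estimate of the assembler. A transcript of 20441 bases that overlaps the annotation was at 2.68, 2.95 and 3.89 FPKM at 0 h and at 1.96, 2.67 and 6.02 at 24 h. The main MALAT1 transcript, of 8708 bases, carried 49.6 ± 7.35% of the 0 h sum and 51.0 ± 4.36% of the 24 h sum (SD, n = 3 each).

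Retained-intron transcripts, which tend to stay in the nucleus as these RNAs do, were also highest at 24 h. Their share of the FPKM on annotated transcripts of at least 300 bases was 3.61%, 3.95% and 3.75% at 0 h and 4.08%, 4.27% and 4.39% at 24 h. Transcripts under 300 bases took 60.8%, 57.0% and 70.4% of all FPKM at 0 h and 64.9%, 77.3% and 87.6% at 24 h. This share was also high in replicate 3 of 1 h (84.1%) and replicates 1 and 3 of 2 h (85.2% and 85.9%), in which NEAT1 was at 12.1 to 26.0 FPKM and MALAT1 at 16.3 to 30.7. Replicate 3 of 24 h was the highest of the 12 libraries in both measures, and their part in the levels of NEAT1 and MALAT1 was not tested.

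**Figure D2:**
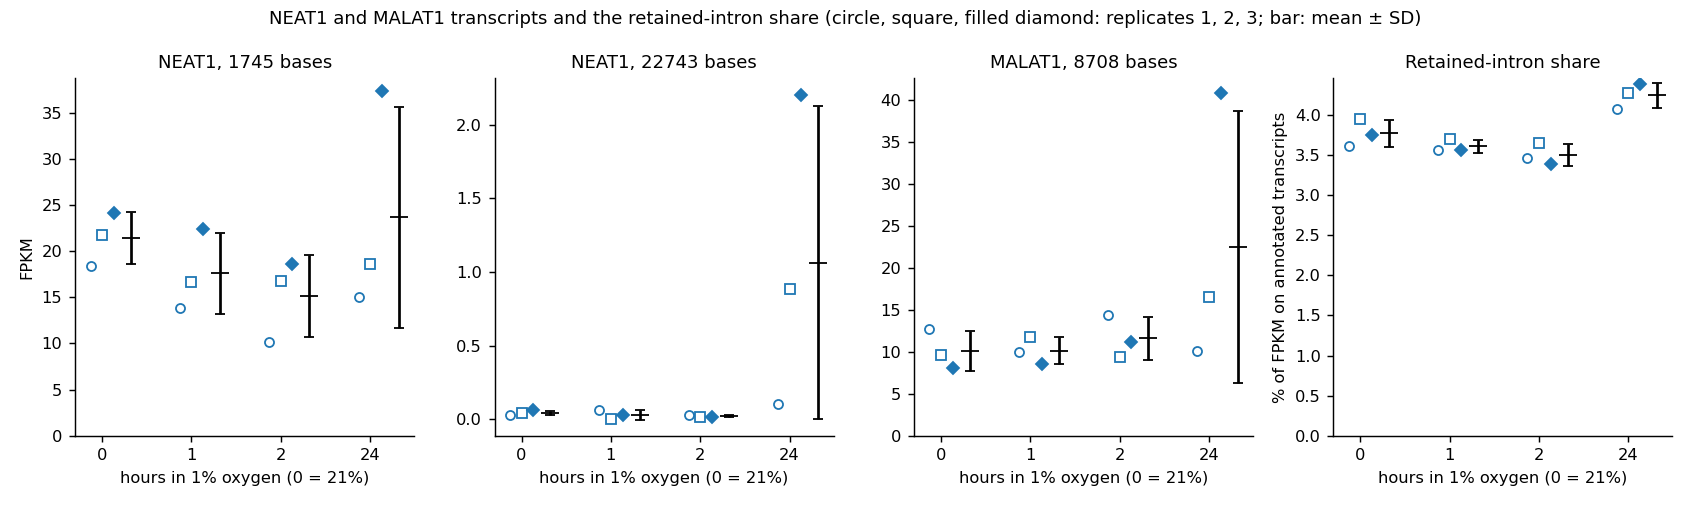
FPKM of the short and long NEAT1 transcripts and of the main MALAT1 transcript, and the share of FPKM on annotated transcripts that retained-intron transcripts held (percent), against hours in 1% oxygen. Symbols are the 3 libraries of each time point and bars the mean ± SD. Replicate 3 of 24 h is the highest point in every panel, at 37.4, 2.205 and 40.9 FPKM and 4.39%.

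In the order of levels at 0 h, NEAT1 and MALAT1 overlapped in range, and MIR22HG and UPK1A-AS1 followed without overlap with the gene before. MIR210HG, RP11-798M19.6 and RP11-565A3.2 overlapped with each other below 1 FPKM. At 24 h the order was MALAT1, RP11-565A3.2, NEAT1, CTD-2012J19.2, UPK1A-AS1 and RP11-798M19.6, in which each gene overlapped with the next. MIR210HG and MIR22HG came last and were separate. Among 1294 genes of the long noncoding type, the level of RP11-565A3.2 went from percentile 17.5 at 0 h to 96.7 at 24 h and that of MIR210HG from 26.4 to 91.7, while MIR22HG went from 69.6 to 21.3.

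**Figure D3:**
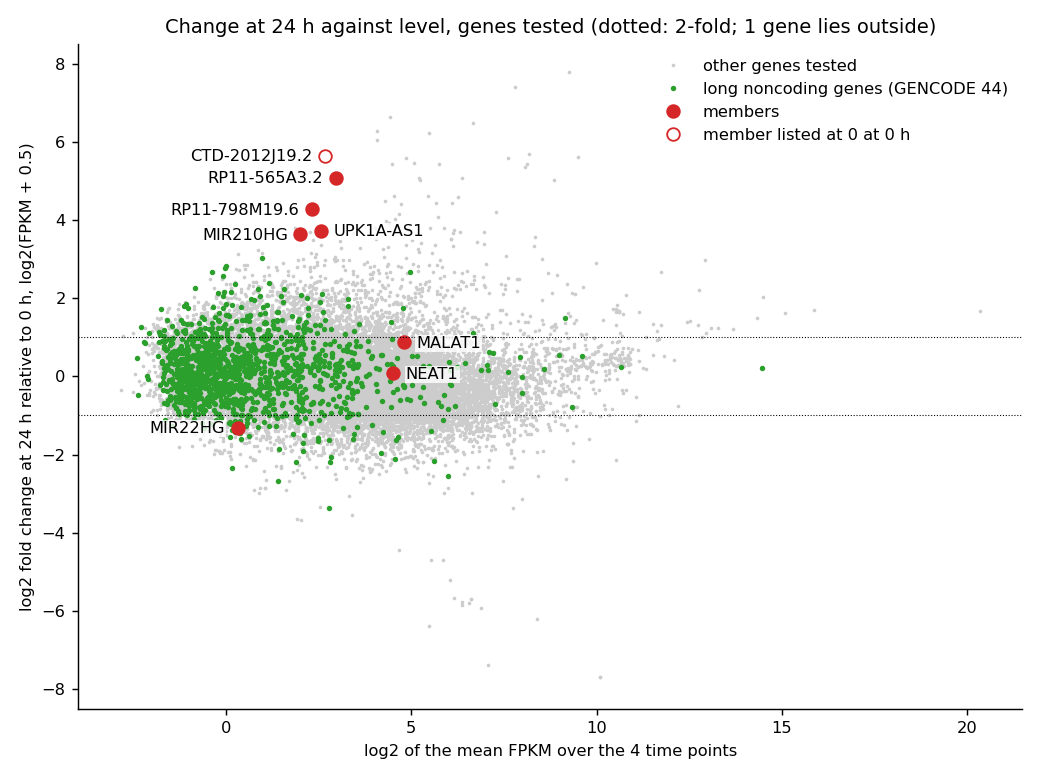
Log2 fold change at 24 h relative to 0 h on log2(FPKM + 0.5) (vertical axis, drawn to 8.5 in both directions, with 1 gene outside) against the log2 of the mean FPKM over the 4 time points (horizontal axis) for the 18127 genes tested. Red points are the 8 genes, with CTD-2012J19.2 open because its value rests on the pseudocount, and green points are other long noncoding genes. Between 3.63 and 5.07, the 4 filled red points at the top lie above every green point.

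Long noncoding genes as a class, 7 of the members among them, were compared with 0 h by limma, a gene being called at an adjusted p under 0.01 and more than 2-fold change. Of 1294 genes of this type 136 were called higher (10.5%) and 63 lower (4.87%), beside 9.8% higher and 9.19% lower of all genes and 19.0% called in either direction. Their median log2 fold change was 0.11 against -0.03 for all genes. The 4 largest increases were those of RP11-565A3.2, RP11-798M19.6, UPK1A-AS1 and MIR210HG, which is not independent of how they were picked. Next came LUCAT1, an RNA known from stress responses, which rose from 0.372 ± 0.142 to 6.49 ± 0.185 FPKM (SD, n = 3 each; log2 fold change 3.02, limma adjusted p = 4.27e-07). The largest decrease was that of VPS9D1-AS1, an antisense RNA, from 10.8 ± 1.03 to 0.620 ± 0.291 FPKM (SD, n = 3 each; log2 fold change -3.37, limma adjusted p = 2.25e-07). PINK1-AS, RP11-259N19.1 (HK2-DT in GENCODE 44), RP11-6N17.9 and FAM86C1 followed, with log2 fold changes from -2.69 to -2.18.

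The gene lists used here were chosen with earlier results of these data known, so their counts and medians are a description. A list of 13 other long noncoding RNAs reported as hypoxia-inducible had 6 tested members. Of these 3 were called higher and 0 lower at 24 h (median log2 fold change 1.01). Of all genes 9.8% were called higher and 9.19% lower, and of long noncoding genes 10.5% and 4.87%. UCA1 rose from 11.4, 12.2 and 13.5 FPKM at 0 h to 99.0, 80.7 and 66.4 at 24 h, and its difference on the log2 scale was 2.66 ± 0.21 (standard error; limma adjusted p = 2.76e-06). HIF1A-AS2, which lies antisense to the gene of HIF-1α, was listed at 0 in every library of 0 h and 1 h and was at 1.48, 1.10 and 0.910 FPKM at 24 h. It passed the filter only through its libraries of 24 h, which favours a call, and it is 1 of the 3. H19, an imprinted RNA, rose from 1.56 ± 0.420 to 6.12 ± 2.24 FPKM (SD, n = 3 each; limma adjusted p = 0.000276), and under TPM its log2 fold change was 0.78 and not called. PVT1, LINC00152 and MIR31HG had log2 fold changes of 0.36, 0.16 and -0.03 and were not called.

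Of 17 other widely expressed or nuclear long noncoding RNAs 14 were tested, 0 were called higher and 2 lower, with a median log2 fold change of -0.15. The shares called higher and lower were 9.8% and 9.19% of all genes and 10.5% and 4.87% of long noncoding genes. DLEU2, a host of microRNAs, fell from 26.9 ± 4.22 to 8.94 ± 2.52 FPKM (SD, n = 3 each; limma adjusted p = 3.74e-05). FTX, an RNA of the X-inactivation centre, had a log2 fold change of -1.004 that stood at the threshold (limma adjusted p = 0.00757, from 0.00138 to 0.161 over the alternatives) and lost its call in 12 of them, among them those without replicate 1 of 0 h (-0.82), replicate 3 of 0 h (-0.92), replicate 2 of 1 h (-1.004), replicate 3 of 2 h (-1.004), replicate 2 of 24 h (-0.80) or replicate 3 of 24 h (-1.06). Among 16 further microRNA host genes only MIR17HG and MIR31HG passed the filter, with log2 fold changes of -0.80 and -0.03, and 0 of them were called by limma and 1 had an unadjusted p under 0.05. With only transcripts past 0.5 FPKM in 3 libraries MIR17HG was called lower, at -1.15 (limma adjusted p = 0.00249).

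The RNAs that encode paraspeckle proteins were then examined. Of 16 tested 0 were called higher and 5 lower at 24 h, beside 9.8% higher and 9.19% lower of all genes. The median log2 fold change was -0.84, beside -0.03 for all genes. It was below 0 for 15 of the 16, and the share of all genes below 0 is not given here. SFPQ, one of the proteins that bind NEAT1 directly, was at 299, 273 and 266 FPKM at 0 h, at 214, 220 and 216 at 2 h and at 87.8, 61.8 and 67.6 at 24 h, with no overlap between these times. The log2 difference at 24 h was -1.95 ± 0.11 (standard error; limma adjusted p = 6.16e-07). RBM14 had -1.57, EWSR1 -1.27 and PSPC1 -1.07, with limma adjusted p from 1.4e-05 to 0.00016. NONO, the partner of SFPQ, had -0.53 (limma adjusted p = 7.99e-05) and TARDBP -0.98, both of them within 2-fold. Without replicate 3 of 24 h TARDBP and TAF15 were called lower, at -1.01 and -1.08. Under TPM CPSF6, TAF15 and TARDBP were called lower too, at -1.69, -1.83 and -1.83. On that scale 3934 of all genes were called lower, and the median of all genes was -0.76. At 2 h 0 of the 16 were called by limma and 2 had an unadjusted p under 0.05.

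The reported targets of miR-210 and miR-22 were set beside their hosts. Of 9 reported miR-210 targets 1 was called higher and 0 lower, 7 had a log2 fold change below 0, and the median was -0.52. Of all genes 9.8% were called higher and 9.19% lower, with a median of -0.03. ISCU, which assembles iron-sulfur clusters, fell from 90.5 ± 5.88 to 54.5 ± 4.72 FPKM (SD, n = 3 each; log2 fold change -0.73, limma adjusted p = 7.34e-05), which is under 2-fold. E2F3, a cell cycle factor, had -0.81 and GPD1L, a dehydrogenase-like protein, had -0.54. EFNA3, an ephrin ligand, was the one called higher, from 10.7 ± 2.29 to 32.3 ± 1.05 FPKM (SD, n = 3 each; limma adjusted p = 7.44e-06). Any part of the microRNAs in the changes of these targets was not tested. Of 7 tested miR-22 targets 2 were called higher and 0 lower, with a median of 0.74 and 1 below 0, MAX, a transcription factor, at -0.66 (limma adjusted p = 0.00567). These were CDKN1A, the cell cycle inhibitor p21, at 61.9 ± 6.90 and 177 ± 17.3 FPKM (SD, n = 3 each; limma adjusted p = 4.68e-05) and HDAC4, a histone deacetylase, with a log2 fold change of 1.67 (limma adjusted p = 0.0021). Under TPM the values of EFNA3, CDKN1A and HDAC4 were 0.70, 0.63 and 0.78, and none was called, while ISCU, E2F3 and GPD1L were called lower at -1.58, -1.55 and -1.26. The median of all genes was -0.76 on that scale. Over the 53 genes of these 6 lists that were tested, 13 (24.5%, beside 19.0% of all genes) were called at 24 h, 6 of them higher and 7 lower, with a median of -0.28. As the lists were chosen with earlier results known, this share is a description. By limma 0 were called at 2 h, where 7 had an unadjusted p under 0.05, and 0 at 1 h, where 1 did. Of all genes 0.011% were called at 2 h and 0.00552% at 1 h.

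The genes beside the 8 members were tested in the same fit, since an antisense or divergent RNA may or may not move with its neighbour. A neighbour was any tested gene with a transcript of at least 300 bases that overlaps a member, or the nearest on each side. Of 18 such genes 4 were called at 24 h (22.2%, beside 19.0% of all genes), all of them higher, with a median log2 fold change of 0.23. By limma 0 were called at 2 h and 1 h, where 3 and 1 had an unadjusted p under 0.05.

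UPK1A, which lies across UPK1A-AS1 on the plus strand, rose with it. It was at 0.103, 0.334 and 0.228 FPKM at 0 h, at 0.145, 0.780 and 0.659 at 2 h and at 2.55, 3.10 and 3.94 at 24 h. The libraries of 24 h lay above all others, and the log2 difference was 2.35 ± 0.28 (standard error; limma adjusted p = 3.69e-05, at most 0.000291 over the alternatives). The leading transcripts of both genes share 271 exonic bases on opposite strands. How completely the libraries kept the strands apart was not measured here, and its part in the rise of UPK1A was not tested.

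SAP30, which overlaps RP11-798M19.6 on the other strand, was at 19.4, 15.6 and 15.4 FPKM at 0 h, at 29.2, 24.7 and 22.1 at 2 h and at 30.8, 36.0 and 27.6 at 24 h. All of its 24 h libraries lay above those of 0 h, but the change stayed within 2-fold (log2 difference 0.88 ± 0.15, standard error; limma adjusted p = 0.000438), and under TPM it was 0.03. The leading transcripts of SAP30 and RP11-798M19.6 share 0 exonic bases.

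AP000769.1, a long noncoding gene between NEAT1 and MALAT1 on the same strand (chr11:65222784-65234191), rose from 2.29, 2.67 and 3.36 FPKM at 0 h to 9.89, 9.39 and 8.31 at 24 h. The log2 difference was 1.58 ± 0.18 (standard error; limma adjusted p = 2.74e-05), and under TPM it was 0.71 and not called. Replicate 3 of 24 h, the highest library for NEAT1 and MALAT1, was the lowest of the 3 here. SERPINF2, which encodes a plasmin inhibitor, lies 25662 bases from MIR22HG and rose from 0.709 ± 0.193 to 2.93 ± 0.592 FPKM (SD, n = 3 each; limma adjusted p = 7.3e-05) while MIR22HG was lower. Under TPM the log2 fold change of SERPINF2 was 0.66 and not called. RP11-11N5.1, which is 640507 bases from RP11-565A3.2, passed the filter with the help of its 24 h libraries, which favours a call, and had a log2 fold change of 1.17 (limma adjusted p = 0.00626, at most 0.0287 over the alternatives) and lost its call in 8 of them, with 1.08, 1.22 and 1.22 without replicates 1, 2 and 3 of 0 h and 0.98 and 0.99 without replicates 1 and 2 of 24 h. The genes next to MIR210HG, RASSF7 and PHRF1, had log2 fold changes of 0.64 and -0.56 and were not called. Under TPM RASSF7 turned to -0.19 and PHRF1 was called lower at -1.33 (limma adjusted p = 0.00745). Those next to CTD-2012J19.2, SDHAP3 and RP11-43F13.1, had 0.37 and 0.33, which turned to -0.24 and -0.43 under TPM. WDR81, which overlaps MIR22HG on the other strand, had -0.35 (limma adjusted p = 0.185).

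**Figure D4:**
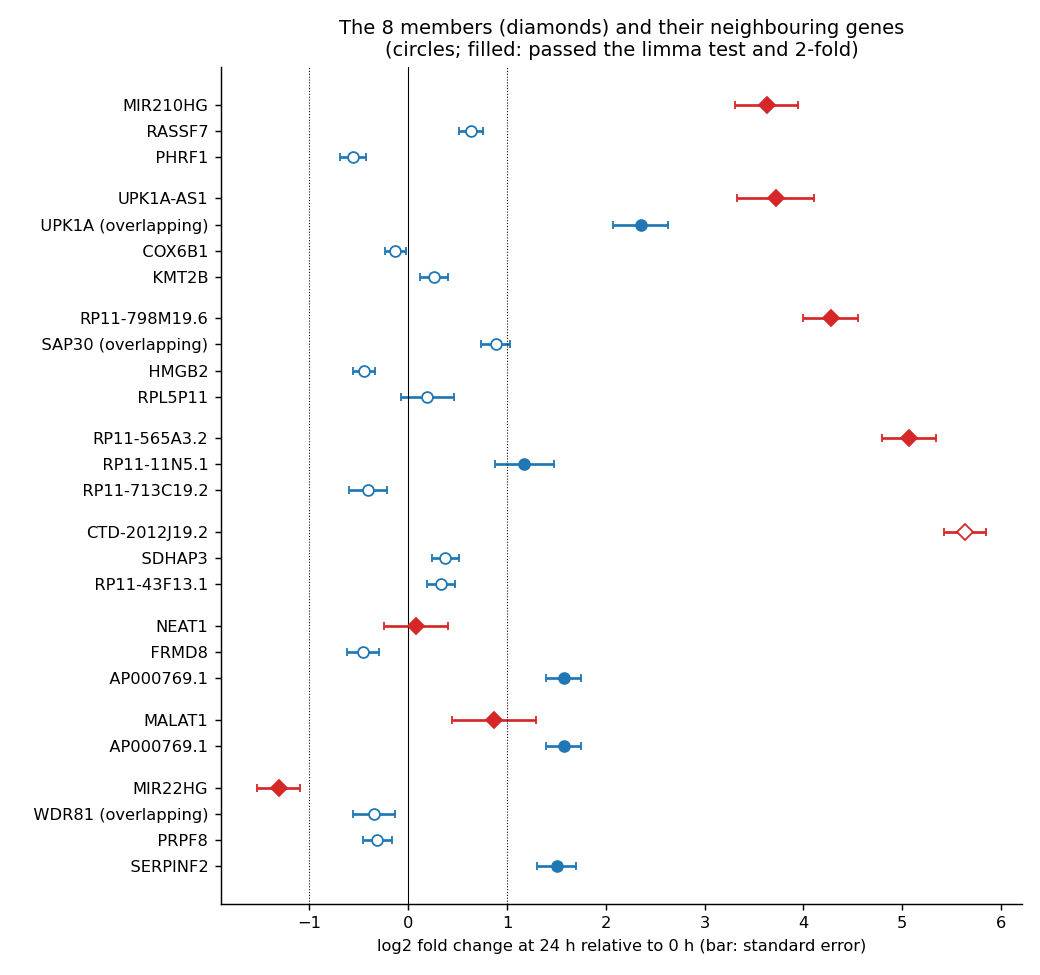
Log2 fold change at 24 h relative to 0 h on log2(FPKM + 0.5) (horizontal axis) of the 8 members (diamonds, open for CTD-2012J19.2) and of genes beside or across each (circles, filled where called), with bars for the standard error and dotted lines at 2-fold. UPK1A at 2.35 is the neighbour with the largest change, and AP000769.1 appears under both NEAT1 and MALAT1.

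The genes most like each member were ranked by Pearson's r over the 12 libraries on log2(FPKM + 0.5), among genes with a mean of at least 1 FPKM. The libraries fall into 4 time points and r follows mainly the step to 24 h, so it is given as a description and without a p. For MIR210HG they were DUSP16 (r = 0.986), C7orf60 and FAM214B, and for UPK1A-AS1 they were ABTB1 (r = 0.990), SLC45A1 and MKNK2. KIAA1432 was the most alike for both RP11-798M19.6 (r = 0.991) and RP11-565A3.2 (r = 0.998). RP13-996F3.4 and GLRX came next for RP11-798M19.6, and TFE3 and BNIP3P1 for RP11-565A3.2. QSOX1 (r = 0.997), ENO2 and an unannotated locus were most like CTD-2012J19.2. NEAT1 was most like MYO1C (r = 0.945) and LRRC41, MALAT1 was most like RNF111 (r = 0.938), SUV420H1 and DIP2C, and MIR22HG was most like RP11-973N13.2 (r = 0.974), TARBP2 and RP11-128A6.3. Among the members themselves r was 0.94 to 0.99 between MIR210HG, UPK1A-AS1, RP11-798M19.6 and RP11-565A3.2 over the same 12 libraries, whereas NEAT1 and MALAT1 had 0.45 with each other.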

How the data were processed

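Per the labels and the study's methods, RNA of 12 libraries was aligned to hg19 (GRCh37) with Mapsplice, and transcripts were assembled with Cufflinks and merged with Ensembl; the submitters' notes also list CASAVA 1.8.2. The authors deposited FPKM per transcript, with no normalisation between libraries given in the sources used here. FPKM was summed per gene name, and genes past 0.5 FPKM in at least 3 libraries were tested with limma 3.58.1 in R 4.3.3 (lmFit and eBayes with trend, all 12 libraries) on log2(FPKM + 0.5), two-sided, with Benjamini-Hochberg adjustment over 18127 genes. The fit was tested on simulated data. Types and coordinates came from GENCODE 44 on GRCh37. Tables and figures used Python 3.11.15, numpy 2.4.6, pandas 2.3.3 and matplotlib 3.10.9. The members and lists were chosen with earlier results of these data known. Named genes are the members, their neighbours, the listed genes, the 3 most alike per member and the 5 largest called changes of long noncoding genes in each direction. Some genes that this rule names are not reported here. Read counts were not used here. Alternatives were other scalings, pseudocounts, filters, transcript sets and fits without 1 library.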

Additional observations from a re-analysis of the deposited data

Results flagged for a closer look

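Groups of 3 libraries are too small for the check on single outlying samples, so none was made. The change at 24 h was compared with that at 2 h by a limma test of the difference itself. Of the 18 neighbouring genes 5 had an adjusted p under 0.01. The share of all genes that passed this test is not given here. The count hence cannot be set against a background and does not single out the neighbours. The difference was 1.89 on the log2 scale for UPK1A (limma adjusted p = 0.000201), 1.37 for AP000769.1 (limma adjusted p = 8.55e-05) and 1.56 for SERPINF2 (limma adjusted p = 6.65e-05), each of them higher at 24 h in 3 of 3 libraries than in any library of 2 h. It was 0.61 for SDHAP3 (limma adjusted p = 0.00324), also higher in 3 of 3, and -0.74 for HMGB2 (limma adjusted p = 0.000198), lower in 3 of 3.

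The transcript of 572 bases on the strand opposite NEAT1, which was left out of the sums, had a mean of 0.425 FPKM at 2 h and 0.343 FPKM at 24 h, above the highest 0 h library at 0.257. It was at 0.189, 0.1001 and 0.987 FPKM at 2 h and at 0, 0.213 and 0.816 at 24 h, so that both means rest on replicate 3.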

How the results depend on the processing

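The 3441 genes called at 24 h (1776 higher, 1665 lower) became 4291 when each library was scaled to the same sum over all transcripts (TPM), with 357 higher and 3934 lower and a median log2 fold change of all genes of -0.76 in place of -0.03. With an adjusted p alone the count was 7315. At 2 h the 2 calls became 145 under that TPM, 7 with TPM counted over long transcripts only (300 bases or more), 9 with such transcripts in FPKM, 4 with matching transcripts alone, 1 with a pseudocount of 1 or the filter on single transcripts, and 0 without a filter or with 6 libraries; without 1 library they were 0 to 8. At 1 h the 1 call became 50 under TPM, 0 to 2 without 1 library, and 0 under TPM of long transcripts, long transcripts in FPKM, a pseudocount of 1, a minimum of 1 FPKM, no filter, 6 libraries or the replicate block. At 24 h between 2996 and 3580 genes were called without 1 library.

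The members past 2-fold at 24 h were 6, and 6 to 7 without 1 library, where MALAT1 crossed the line, as it did with matching transcripts alone (1.07). They were 5 with only transcripts past 0.5 FPKM in 3 libraries, where MIR22HG was at -0.98, and 5 in FPKM or TPM of long transcripts, which leave out CTD-2012J19.2. Their median of 3.68 moved to 2.49 under TPM, 4.24 with a pseudocount of 0.1 and 3.23 with 1. The 4 called neighbours, all higher, became 2 under TPM (1 higher, 1 lower), 1 with matching transcripts alone, 8 with an adjusted p alone and 3 to 4 without 1 library. The 13 called listed genes became 21 under TPM (1 higher, 20 lower), 34 with an adjusted p alone and 12 to 14 without 1 library. With matching transcripts alone the leading share was 100.0% for UPK1A-AS1, 96.4% for NEAT1 and 73.3% for MALAT1, and none was left for RP11-565A3.2. Under TPM the log2 fold changes of RASSF7, KMT2B, RPL5P11, SDHAP3 and RP11-43F13.1 were -0.19, -0.51, -0.49, -0.24 and -0.43, all uncalled and of the other sign. MIR31HG turned to 0.0186 with the filter on single transcripts, and without 1 library it ran from -0.16 to 0.18 and RPL5P11 from -0.0644 to 0.53. The cause was not tested.

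Libraries with the same replicate number are not described as paired. Their deviations correlated at -0.15 to 0.37 over 18 pairs, with 9 pairs over 0.1, and 9 of the 12 libraries correlated best with their own number. With the replicate block 3496 genes were called at 24 h, with 4 neighbours and 13 listed genes as before. Read depth was not analysed here, and no difference below the spread between replicates can be read from these values.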
